A study of Homo sapiens with 6 samples.

Results

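The replication-dependent histone genes are the genes that supply histones to newly copied DNA. They were chosen by symbol from the gene names of the count data, as H1-1 to H1-6 and every gene named H2AC, H2BC, H3C or H4C with a number. This gave 69 histone genes, namely 6 of H1, 17 of H2A, 18 of H2B, 13 of H3 and 15 of H4. They were joined by 4 regulators of histone mRNA, SLBP, NPAT, CASP8AP2 and LSM11, so that 73 of the 47470 listed genes were described. RNA was sequenced from wild-type HEK293T cells, an established line from human embryonic kidney in which the SV40 large T antigen is present, a protein that can by itself drive cells into S phase. The untreated cells received nothing, and the VPA-treated cells were kept for 1 day in 1 mM of VPA (valproic acid), which inhibits histone deacetylases. There were 3 libraries of each condition, and no source states that they came from separate cultures, so the p-values measure the spread between these libraries, which may be technical.

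Replication-dependent histone mRNAs are made in S phase, when each cell needs a second set of nucleosomes. Most lack introns and end in a conserved stem-loop in place of a poly(A) tail. SLBP binds that stem-loop, and the U7 ribonucleoprotein, of which LSM11 is a part, directs the cut after it together with CASP8AP2 (FLASH). NPAT, a substrate of cyclin E and CDK2, activates transcription at the histone clusters. Some of these genes also have a longer polyadenylated form, seen in cells that leave the cycle. The libraries were made with a strand-specific mRNA protocol, and how mRNA was selected is not given in the sources used here. Where mRNA is selected by its poly(A) tail, RNA without a tail is under-represented in the counts.

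All 69 histone genes held the stem-loop within 150 bases after the coding sequence of GENCODE 44, between 26 and 71 bases after its last sense codon. The forms are printed because the 3′ end decides whether a histone mRNA has a poly(A) tail. Capitals mark the 6 bases of each arm of the stem, and lower case the loop of 4 bases. There were 10 forms, and the most frequent was found in 40 genes, here shown for H3C10 (hg38, chr6:27810516-27810531, plus strand). The form of H4C5 (chr6:26205001-26205016, plus strand) was found in 10 genes, all of class H4. That of H2BC12 (chr6:27146366-27146381, minus strand) was found in 9 genes, H2BC4 and H2BC11 among them. That of H4C15 (chr1:149860769-149860784, minus strand) was found in 4 genes, and that of H3C6 (chr6:26225596-26225611, plus strand) in that gene alone.
H3C10: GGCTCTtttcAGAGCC
H4C5: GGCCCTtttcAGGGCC
H2BC12: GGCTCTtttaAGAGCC
H4C15: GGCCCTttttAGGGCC
H3C6: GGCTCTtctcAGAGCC

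Histone counts were few in both conditions and fewer in VPA-treated cells. All 69 genes together took 2047, 2087 and 1958 counts in untreated cells and 1388, 1435 and 1385 counts in VPA-treated cells. This was 0.0104% to 0.0111% of the counts on genes in untreated cells and 0.00742% to 0.00771% in VPA-treated cells. Counts on genes totalled 18622267 to 18828495 per library, so that the 3 counts that a count of 0 allows came to about 0.16 CPM (counts per 1000000 counts on genes). In libraries normalized by TMM (trimmed mean of M values) the histone sum was 113 ± 3.45 CPM (SD, n = 3) in untreated cells and 71.9 ± 1.68 CPM in VPA-treated cells. It fell by 36.5%, with no overlap between the libraries. In bulk RNA, fewer cells in S phase and less histone RNA per cell cannot be told apart. A change in the share of histone RNA that the library protocol captured cannot be told apart from these either.

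Each of the 5 classes had a smaller sum in every VPA-treated library than in any untreated library. These sums take in every listed gene, also those with too few counts for a test, and were not tested because the genes were chosen with results of these data known. The linker histone H1, which binds the DNA that enters and leaves the nucleosome, had 7.08 ± 0.55 CPM in untreated and 5.01 ± 0.098 CPM in VPA-treated cells. H2A had 17.0 ± 0.87 and 11.4 ± 0.79 CPM, and its partner H2B had 75.4 ± 2.30 and 46.6 ± 2.39 CPM. H3 had 6.21 ± 0.28 and 3.81 ± 0.75 CPM, and H4, with which it forms the core tetramer, had 7.53 ± 0.46 and 5.07 ± 0.53 CPM. H1 thus fell by 29.3% and H3 fell by 38.6%, the lowest and the highest of the 5. When the libraries were instead scaled to their ribosomal protein genes, the log2 ratio of the whole sum was -0.39 in place of -0.66, and each class sum kept its sign.

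**Figure D1:**
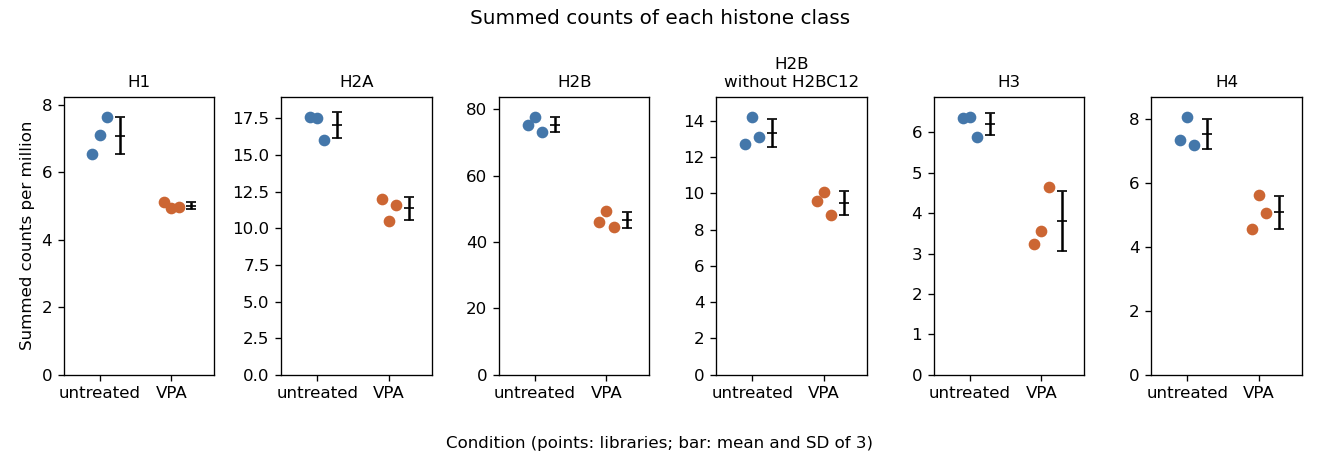
Summed CPM (vertical axes, each from 0) of each histone class in the 3 untreated and 3 VPA-treated libraries (points), with the mean and SD beside them. In all 6 panels each VPA-treated library lies below each untreated library, also for H2B without its leading gene H2BC12 (13.3 and 9.48 CPM).

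Most of each sum came from 1 gene. H2BC12 held 53.5% of all histone counts and 81.2% of those of H2B, H2AC25 59.0% of H2A, H1-2 94.4% of H1, H3C6 58.3% of H3 and H4C15 66.1% of H4. These are shares of counts that were not divided by gene length. Without H2AC25 the H2A sum was 6.21 ± 0.34 CPM in untreated and 5.38 ± 0.47 CPM in VPA-treated cells. It fell by 13.3%, with each VPA-treated library still below. Without H4C15 the H4 sums of 2.40 ± 0.50 and 1.86 ± 0.30 CPM overlapped between the groups, and without H1-2 the H1 sums of 0.333 ± 0.240 and 0.342 ± 0.214 CPM did so too. The remaining H3 genes without H3C6 had 2.55 ± 0.36 and 1.62 ± 0.41 CPM. Their highest VPA-treated library, at 2.10 CPM, lay just below their lowest untreated one, at 2.13 CPM. Of 334 untreated and 223 VPA-treated H3 counts, H3C6 held 197 and 128, and H3C10 held 72 and 24. The other H3 genes together showed no fall in counts.

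Of the 69 histone genes, 54 were detected and 15 were at 0 in all 6 libraries, and 18 of those detected had 1 to 9 counts in all libraries together. The genes at 0 were H1-1, H1-5, H2AC1, H2AC7, H2AC18, H2AC19, H2BC1, H2BC10, H3C8, H3C11, H3C14, H3C15, H4C6, H4C7 and H4C13. H2AC18 and H2AC19 are near-identical copies, as are H3C14 and H3C15, with at least 99.1% of their stretches of 100 bases in common. Reads that fit both copies were set aside in the counting, so a 0 for these 4 genes says little about their mRNA. A like limit holds for H2AC7, which lies inside the RefSeq span of H3C4 on the same strand, and for H2AC1, which overlaps SLC17A1 on the same strand, since reads over more than 1 gene can be set aside as ambiguous (1.97% to 2.10% of the reads listed). The filter on low counts left 21 histone genes and all 4 regulators, and the other 48 histone genes were not tested. The untested genes summed to 4.98 ± 0.48 CPM in untreated and 4.48 ± 0.38 CPM in VPA-treated cells, and these sums overlapped.

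Among the 21 tested histone genes, 11 were lower in VPA-treated cells at an adjusted p under 0.05 (edgeR's quasi-likelihood test, Benjamini-Hochberg over 15298 genes) and 0 were higher, and at an unadjusted p under 0.05 these numbers were 12 and 0. DESeq2 also called 0 higher. In the background of all tested genes, 30% were lower and 32.9% higher by the same rule. When a log2 fold change of 1 or more in either direction was required as well, H3C10 and H2BC4 were lower and 0 were higher, beside 0.503% and 12% of all tested genes. VPA-treated libraries lay below the untreated ones without overlap for 10 of the 21 genes and above for 1, H2AC12, beside 31% and 34.8% of all tested genes. The other 10 overlapped. The median log2 fold change of the 21 genes was -0.67, against 0.0058 for all tested genes.

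Since 18 of the 21 had a mean under 100 normalized counts, they are also set beside tested genes of that count range. Of those 4233 genes, 6.97% were lower and 43.9% higher in VPA-treated cells, and their median log2 fold change was 0.38. Genes with few counts in untreated cells can enter this set through the VPA-treated libraries alone. Past both thresholds, 1231 of the 4233 were higher and 59 lower. Among the 18 histone genes, 8 were lower and 0 higher. Passing the filter is not independent of the difference, because 4 genes (H2AC6, H2AC11, H2BC17 and H3C10) reached the minimum in all 3 untreated but not in all 3 VPA-treated libraries, and 3 (H2AC13, H2BC13 and H2BC26) the reverse. Of the 11 lower genes, H2AC6 and H3C10 are among the former. The counts of called genes therefore describe the tested genes and not all 69.

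By class, the tested genes that were lower were 1 of 1 in H1, 2 of 7 in H2A, 5 of 9 in H2B, 2 of 2 in H3 and 1 of 2 in H4, beside 30% of all tested genes. The median log2 fold change was -0.53, -0.10, -0.74, -1.22 and -0.44 in the same order. The H3 values rest on H3C6 and H3C10, of which H3C10 passed the filter on low counts only through the untreated libraries. Scaling by library totals put the H2A median at 0.033 and scaling by ribosomal protein genes at 0.17, so its sign depends on the scaling, and the other 4 medians stayed negative. The log2 fold changes of all 11 lower genes were negative with DESeq2 and with each of the other scalings (DESeq2 size factors, upper quartile, library totals, ribosomal protein genes). Whether the classes differ from each other was not tested.

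**Figure D2:**
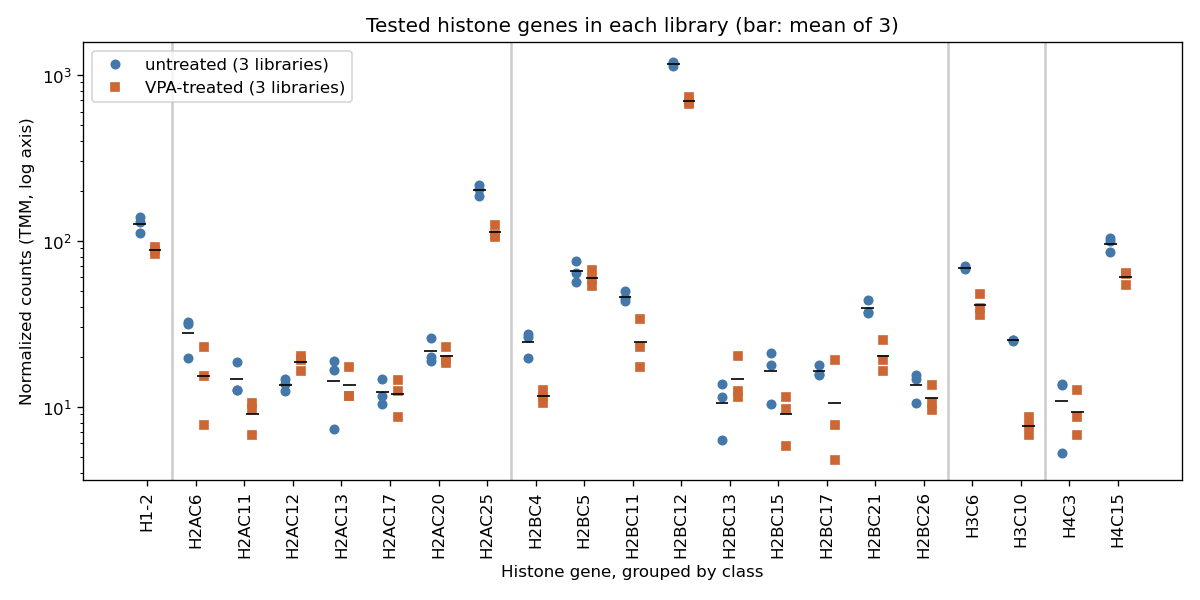
Normalized counts (log axis) of the 21 tested histone genes, in the order H1, H2A, H2B, H3 and H4, with 3 untreated (circles) and 3 VPA-treated (squares) libraries and their means (bars). H2BC12 stands at 1122 to 1188 in untreated and 669 to 733 in VPA-treated cells, and H3C10 at 24.8 to 25.2 and 6.74 to 8.62.

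H3C10, which encodes the canonical H3.1 protein, had the lowest log2 fold change. Its normalized counts were 24.8, 25.1 and 25.2 in untreated cells and 7.67, 6.74 and 8.62 in VPA-treated cells. All VPA-treated libraries were low and the groups lay far apart (log2 fold change -1.69, SE 0.28, adjusted p = 2.45e-05). Its 8, 7 and 9 counts in VPA-treated cells lay under the minimum of 10, so H3C10 was tested only through the untreated libraries. H3C6, a second H3.1 gene and the one with most counts in its class, had 68.3, 67.0 and 70.3 normalized counts in untreated cells and 35.5, 39.5 and 47.9 in VPA-treated cells. The groups did not overlap, and the spread was wider after VPA treatment (log2 fold change -0.74, SE 0.16, adjusted p = 0.000342).

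H2BC4, an H2B gene, was the other gene past both thresholds. It had 19.7, 26.2 and 27.3 normalized counts in untreated cells and 10.5, 12.5 and 11.5 in VPA-treated cells, without overlap (log2 fold change -1.07, SE 0.27, adjusted p = 0.00157). Its log2 fold change was close to the threshold, and it no longer reached -1 with library totals, with ribosomal protein genes or without untreated replicate 3. H2BC12 carried the most counts of any histone gene. Its normalized counts were 1173, 1188 and 1122 in untreated cells and 684, 733 and 669 in VPA-treated cells. The groups lay far apart, and the adjusted p was the smallest of all members (log2 fold change -0.74, SE 0.053, adjusted p = 9.59e-11). H4C9 lies inside the RefSeq span of H2BC12 on the opposite strand, and since the strand setting of the counting is not given, reads of both cannot be told apart with certainty, and H4C9 held 3 counts in all libraries together.

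The H2B genes H2BC11, H2BC15 and H2BC21 were lower too, with log2 fold changes of -0.90, -0.86 and -0.96 and adjusted p-values of 0.00108, 0.0374 and 0.000593. H2BC15 overlapped between the groups, and its call was lost without any of untreated replicate 2, untreated replicate 3, VPA-treated replicate 1 or VPA-treated replicate 2 (adjusted p from 0.0676 to 0.181). The H2BC15 call was also lost with DESeq2 (adjusted p = 0.173), upper quartile scaling (0.0543), library totals (0.0809) and ribosomal protein genes (0.142). H2BC13 had the highest log2 fold change of the histone genes, 0.49 with an SE of 0.35. Its values of 11.4, 6.28 and 13.6 normalized counts in untreated cells and 12.5, 20.2 and 11.5 in VPA-treated cells overlapped (adjusted p = 0.227). H2BC5, with counts of 52.98 to 75.4 after normalization in the 6 libraries, also overlapped, and its log2 fold change of -0.14 became 0.12 with ribosomal protein genes as the scaling. H2BC17 had 15.5, 15.7 and 17.8 normalized counts in untreated cells and 19.2, 7.71 and 4.79 in VPA-treated cells. VPA-treated replicate 1 stood above the untreated libraries, and without it the log2 fold change of -0.63 (adjusted p = 0.151) became -1.37 (adjusted p = 0.00548).

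In class H2A the gene with most counts, H2AC25, had 217, 204 and 187 normalized counts in untreated cells and 124, 105 and 108 in VPA-treated cells. The groups did not overlap (log2 fold change -0.85, SE 0.10, adjusted p = 3.64e-07). H2AC6 had the same log2 fold change of -0.85 with a wider error of 0.31 (adjusted p = 0.0195). It had 19.7, 32.4 and 31.5 normalized counts in untreated cells and 15.3, 7.71 and 23.0 in VPA-treated cells, and VPA-treated replicate 3 lay above untreated replicate 1. Its call was lost without untreated replicate 2, untreated replicate 3 or VPA-treated replicate 2 (adjusted p from 0.0577 to 0.127). The H2AC6 call was also lost with DESeq2 (adjusted p = 0.0827), library totals (0.0521) and ribosomal protein genes (0.0982). H2AC12 was the 1 tested gene with every VPA-treated library above every untreated one, at 12.4, 14.7 and 13.6 normalized counts in untreated cells and 16.3, 20.2 and 19.1 in VPA-treated cells. The difference did not pass the test (log2 fold change 0.45, SE 0.27, adjusted p = 0.174), except with ribosomal protein genes as the scaling (0.72, adjusted p = 0.0246). H2AC11 lay below without overlap but did not pass (log2 fold change -0.70, adjusted p = 0.0734). The remaining H2AC13, H2AC17 and H2AC20 overlapped and had log2 fold changes of -0.10 to -0.041, which were positive with library totals or ribosomal protein genes as the scaling.

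H1-2, the linker histone gene that held nearly all H1 counts, had 111, 130 and 139 normalized counts in untreated cells and 88.2, 82.8 and 91.0 in VPA-treated cells. The groups did not overlap (log2 fold change -0.53, SE 0.12, adjusted p = 0.000603), and with ribosomal protein genes as the scaling the call was lost (log2 fold change -0.26, adjusted p = 0.0602). H4C15 had 84.9, 104 and 99.7 normalized counts in untreated cells and 53.7, 63.6 and 63.2 in VPA-treated cells. It was lower without overlap (log2 fold change -0.67, SE 0.14, adjusted p = 0.000216), but its short transcript is identical to that of H4C14 in all stretches of 100 bases. Reads that fit both were set aside, so the 464 counts of H4C15, 66.1% of those of H4, say little about that short transcript. H2AC19 and H3C15 also lie inside the RefSeq span of H4C15 on the opposite strand. H4C3 had 13.5, 13.6 and 5.25 normalized counts in untreated cells and 6.71, 12.5 and 8.62 in VPA-treated cells. These overlapped, and the log2 fold change of -0.21 (adjusted p = 0.653) was 0.051 with ribosomal protein genes as the scaling.

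**Figure D3:**
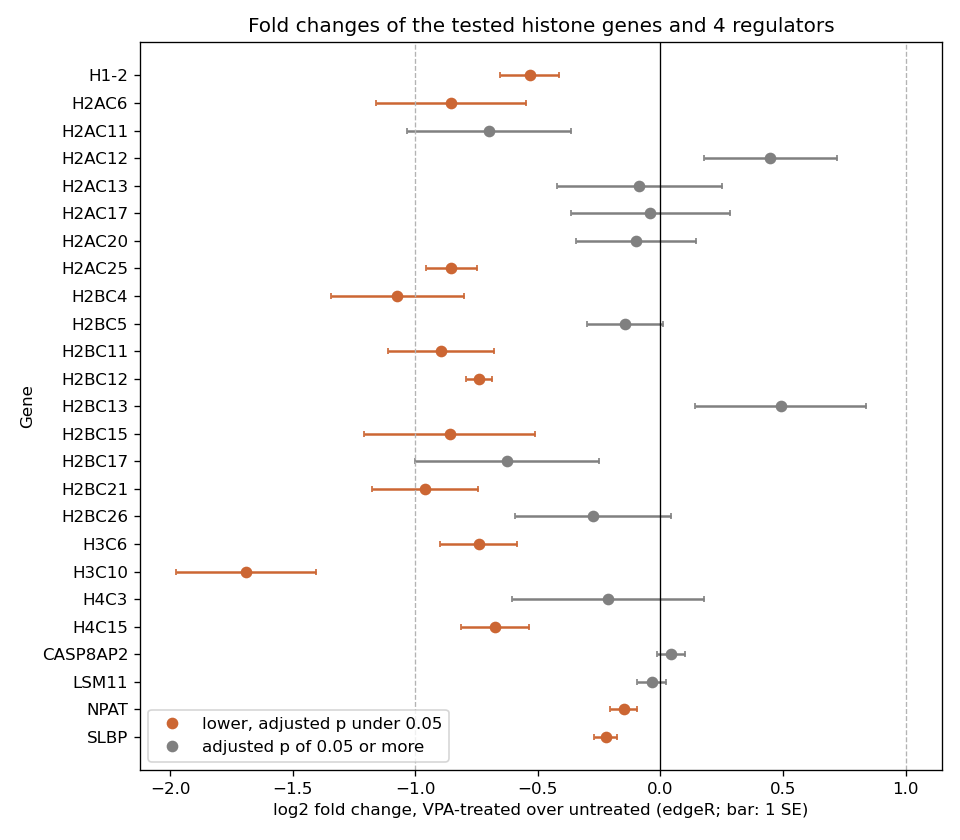
Log2 fold change of VPA-treated over untreated cells (horizontal axis, bars 1 SE) for the 21 tested histone genes and the 4 regulators, with dashed lines at -1 and 1. H3C10 at -1.69 and H2BC4 at -1.07 lie past the dashed line, H2AC12 and H2BC13 lie to the right of 0 without passing the test, and the 4 regulators lie between -0.22 and 0.041.

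The 4 regulators act on the transcription and the 3′ end of histone mRNA, and 2 of them were lower, beside 30% of all tested genes. SLBP, which binds the stem-loop and is itself made mainly around S phase, had 2256, 2335 and 2174 normalized counts in untreated cells and 1941, 2021 and 1833 in VPA-treated cells. It was lower without overlap (log2 fold change -0.22, SE 0.046, adjusted p = 0.000252), but scaling by library totals gave -0.092 (adjusted p = 0.0931) and scaling by ribosomal protein genes 0.046 (adjusted p = 0.387). NPAT had 699, 648 and 685 normalized counts in untreated cells and 608, 603 and 620 in VPA-treated cells (log2 fold change -0.15, SE 0.056, adjusted p = 0.0245). The NPAT groups did not overlap, but the call was lost with DESeq2 (adjusted p = 0.058) and without untreated replicate 1, untreated replicate 3, VPA-treated replicate 1 or VPA-treated replicate 2 (adjusted p from 0.0508 to 0.0742), and the log2 fold change was 0.12 with ribosomal protein genes. CASP8AP2 had 835, 770 and 874 normalized counts in untreated and 845, 819 and 888 in VPA-treated cells, which overlapped (log2 fold change 0.041, SE 0.057, adjusted p = 0.547). LSM11 had 687, 787 and 752 normalized counts in untreated and 690, 763 and 718 in VPA-treated cells, which overlapped as well (log2 fold change -0.036, SE 0.061, adjusted p = 0.624). With ribosomal protein genes as the scaling both were higher, CASP8AP2 with a log2 fold change of 0.31 (adjusted p = 8.33e-05) and LSM11 with 0.23 (adjusted p = 0.00171).

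The 3′ end of the annotated gene varied between the members. In 7 genes (H2BC4, H2BC5, H2BC12, H2BC18, H2BC21, H3C6 and H4C15) the RefSeq gene ran on by more than 100 bases after the stem-loop. These 7 held 67.99% of all histone counts, all 7 were detected, and 5 of the 6 tested were lower, beside 30% of all tested genes. In the other 62 genes the RefSeq gene ended within 100 bases of the stem-loop. Of these, 47 were detected, 15 were tested and 6 were lower, H3C10, H2AC25 and H1-2 among them, beside the same 30%. GENCODE 44 lists longer transcripts for some of them, spanning up to 1250 bases for H3C10 and 23097 for H2AC25. For H1-2 it lists 1 transcript of 731 bases. Of the tested genes with more than 1 GENCODE transcript 8 of 10 were lower, and of those with 1 transcript 3 of 11. These 3 were H1-2, H2BC12 and H2BC21. In RefSeq, H2BC12 and H2BC21 ran 8073 and 1729 bases past the stem-loop, so the split depends on the annotation. The counts are per gene, so which form the reads came from was not tested.

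As a check on other RNA without a poly(A) tail, 32 listed RNAs such as RN7SK, RN7SL1 and small nucleolar RNAs were summed. Their sum was 12.8 ± 0.43 CPM in untreated and 10.8 ± 0.38 CPM in VPA-treated cells. It fell by 15.9% without overlap, whereas the histone sum fell by 36.5%. Of the 5 tested, 1 was lower and 0 were higher (edgeR), beside 30% and 32.9% of all tested genes. With DESeq2 0 were higher and 0 lower. All 5 log2 fold changes were negative, but with ribosomal protein genes as the scaling 3 were negative, 0 were lower and the median was -0.027. SNORA73B, a small nucleolar RNA of the H/ACA type, had the lowest log2 fold change, -0.73 (adjusted p = 0.00602), and SNORD3A, the U3 RNA of ribosome assembly, the highest, -0.14 (adjusted p = 0.502). The part of this fall in the histone result was not tested.

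Promoters are printed for the 4 members on which the result turns most, the genes past both thresholds and those with most counts in H2B and H2A. Each run is the 250 bases before the start of the RefSeq gene (GRCh38.p14, 5′ to 3′ on the gene's strand). Capitals mark the octamer ATTTGCAT, the CCAAT box and the TATA box (TATAAA), on both strands, and where 2 matches touch they form 1 run of capitals. H3C10 (chr6:27809801-27810050, plus strand) held 2 CCAAT boxes and a TATA box 32 bases before the start, and H2BC4 (chr6:26123927-26124176, minus strand) held an octamer at 123 bases. H2BC12 (chr6:27146859-27147108, minus strand) held an octamer at 46 and a TATA box at 27 bases before the start, and H2AC25 (chr1:228457874-228458123, minus strand) neither.
H3C10: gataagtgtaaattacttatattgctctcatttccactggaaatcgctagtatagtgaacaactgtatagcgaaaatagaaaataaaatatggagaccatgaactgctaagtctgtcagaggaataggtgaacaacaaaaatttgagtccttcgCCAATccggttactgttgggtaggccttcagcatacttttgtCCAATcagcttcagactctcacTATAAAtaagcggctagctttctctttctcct
H2BC4: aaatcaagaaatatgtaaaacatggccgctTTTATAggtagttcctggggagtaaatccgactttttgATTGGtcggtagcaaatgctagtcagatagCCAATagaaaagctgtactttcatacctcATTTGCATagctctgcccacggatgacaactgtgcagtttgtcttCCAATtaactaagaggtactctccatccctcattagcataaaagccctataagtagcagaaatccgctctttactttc
H2BC12: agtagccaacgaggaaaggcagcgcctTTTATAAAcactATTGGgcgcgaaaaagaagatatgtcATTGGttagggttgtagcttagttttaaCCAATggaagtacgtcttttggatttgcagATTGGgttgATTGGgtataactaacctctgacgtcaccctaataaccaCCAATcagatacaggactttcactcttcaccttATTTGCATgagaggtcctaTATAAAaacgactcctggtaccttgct
H2AC25: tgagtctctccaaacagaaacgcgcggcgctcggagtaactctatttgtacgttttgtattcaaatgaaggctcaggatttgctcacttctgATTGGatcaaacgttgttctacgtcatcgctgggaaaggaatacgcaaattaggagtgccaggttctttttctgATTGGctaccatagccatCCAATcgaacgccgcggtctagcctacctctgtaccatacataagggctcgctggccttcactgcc

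Promoter sequences were matched for 68 of the 73 members, and no entry was matched for H2AC12, H3C11, H3C12, H4C1 and H4C3. In the window from 250 bases before to 50 after the start, the octamer stood in 14 of 18 H2B, 11 of 16 H2A, 1 of 11 H3 and 0 of 13 H4 promoters, beside 1.82% of 27305 promoters of all genes. The CCAAT box was in every H1, H2A, H2B and H3 promoter but in only 3 of 13 of H4, beside 35.7% of all promoters. The TATA box was in 42 of 64 histone promoters, beside 12% of all. The octamer was in 5 of 11 lower genes and in 4 of the 8 other tested genes with a sequence, and the TATA box was in 7 of 11 and 7 of 8. H2A and H2B genes that start back to back lie 193 to 247 bases apart, so their windows overlap and 1 site can be counted for both genes. H2AC7 and H3C4 have the same RefSeq start, so 1 site can also be counted in both H2A and H3. The octamers of H2BC4 and H2AC6, for example, are the same site, so these counts are not of independent promoters. These are matches of letters, and no test was made of their relation to the log2 fold changes.

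Many H2A and H2B genes start back to back and share the stretch between them as a promoter. By RefSeq starts there were 13 back-to-back pairs of histone genes with at most 500 bases between the starts, 12 of an H2A and an H2B gene and 1 of H2BC7 and H3C4. This last pair has the same 222 bases between its starts as the pair of H2BC7 and H2AC7, so that 1 stretch is counted in both. The RefSeq span of H3C4, 2510 bases, starts where H2AC7 starts, whereas its GENCODE transcript spans 503 bases. The pair of H2BC7 and H3C4 thus rests on the RefSeq start. Both genes were tested in 7 of the 13 pairs, all of an H2A and an H2B gene. H2BC4 and its neighbour H2AC6 were both lower. In 3 pairs, H2BC12 with H2AC12, H2BC11 with H2AC11 and H2BC21 with H2AC20, the H2B gene was lower and the H2A gene did not pass, and in the pair of H2AC25 and H2BC26 the reverse was seen. The difference within a pair was taken as the log2 ratio of H2B to H2A counts per library, a comparison chosen after the values had been seen.

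H2BC12 and H2AC12 are 247 bases apart. Their log2 ratio was 6.50, 6.29 and 6.31 in untreated cells and 5.35, 5.15 and 5.09 in VPA-treated cells, a difference of -1.17. For H2BC21 and H2AC20 the ratio differed by -0.88, and for H2BC26 and H2AC25 by 0.59, each without overlap between the groups. All 3 had an exact two-sided permutation p of 0.1, the smallest that 3 against 3 libraries can give, so that no pair could pass (0.233 after adjustment over 7 pairs). In the other 4 pairs the ratios overlapped, with p from 0.2 to 0.9.

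**Figure D4:**
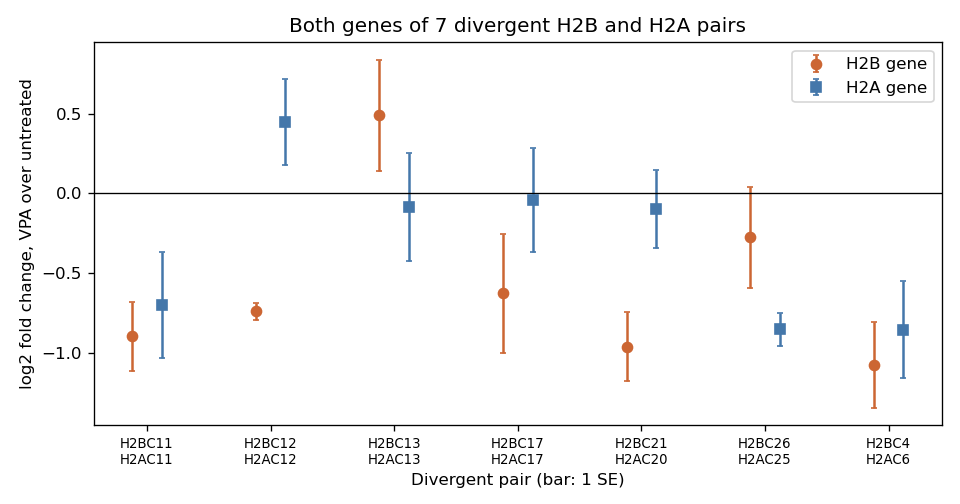
Log2 fold changes (vertical axis, bars 1 SE) of the H2B gene (circle) and the H2A gene (square) of the 7 back-to-back pairs in which both were tested. H2BC12 at -0.74 and H2AC12 at 0.45 lie furthest apart, and H2BC4 and H2AC6 lie together.

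The other histone genes and the genes that act around histones were described from lists. Most replication-independent histones are made also outside S phase, from polyadenylated mRNA, but this does not hold for every gene of the list, which includes H2AX and CENPA. Of the 10 tested, 6 were lower and 2 were higher, beside 30% and 32.9% of all tested genes. Their median log2 fold change was -0.20. H3-3A, which encodes H3.3, was the lowest with -0.42 (adjusted p = 4.89e-07), from 2921 to 3324 normalized counts in untreated and 2224 to 2495 in VPA-treated cells. H3-3B, which encodes the same protein, had -0.27 (adjusted p = 7.16e-06) but 0.0040 with ribosomal protein genes as the scaling. H2AZ1, an H2A.Z gene, had -0.35 (adjusted p = 2.74e-07), and with that scaling -0.080 (adjusted p = 0.0822). H2AJ, an H2A variant gene, was higher (log2 fold change 0.41, adjusted p = 0.000569), and H2AX had too few counts for a test.

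Genes of S phase are given beside the histones because histone mRNA is made there. Of 43 tested, 37 were lower and 1 was higher, with a median log2 fold change of -0.23. The list holds SLBP, and it shares CCNE1, CCNE2 and CCNA2 with the list of processing and control and MCM2 with the chaperones. The lists are thus not separate from each other or from the regulators. The shares of all tested genes to set beside this and the next lists were 30% lower and 32.9% higher. CCNE2, the cyclin E2 that with CDK2 drives entry into S phase, was the lowest with -0.64 (adjusted p = 9.73e-08), and E2F2, a transcription factor of the same step, the highest with 0.16 (adjusted p = 0.017). In the list of histone mRNA processing and control, 24 of 34 were lower and 2 higher, with a median of -0.23. CCNE2, also in that list, was its lowest, and CTIF, a translation factor of the cap-binding complex, its highest with 0.81 (adjusted p = 2.21e-11). Of 25 histone chaperones and importers, 21 were lower and 1, ASF1A, was higher (0.14, adjusted p = 0.0272), with a median of -0.26. With DESeq2 0 S phase genes and 0 chaperones were higher, so that E2F2 and ASF1A did not pass. IPO4, an importer of H3 and H4, was the lowest with -0.65 (adjusted p = 3.64e-11).

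The direction of these lists depended on the scaling. With ribosomal protein genes as the scaling 6 S phase genes were lower and 11 higher, and these numbers were 4 and 12 for processing, 5 and 6 for chaperones and 1 and 4 for the replication-independent histones. Of all 15298 tested genes, 869 were lower and 9255 higher with that scaling. The medians were then 0.043 for S phase genes, 0.042 for processing, 0.014 for chaperones and 0.069 for the replication-independent histones, and -0.40 for the 21 replication-dependent histone genes, of which 8 were lower and 1 higher. That scaling raised the median of all tested genes to 0.28, and since a scaling moves all genes alike, each list kept its distance from that median. In TMM this distance was -0.23 for S phase genes, -0.23 for processing, -0.26 for chaperones, -0.21 for the replication-independent histones and -0.68 for the replication-dependent histone genes. The part of S phase genes in the histone result was not tested.

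**Figure D5:**
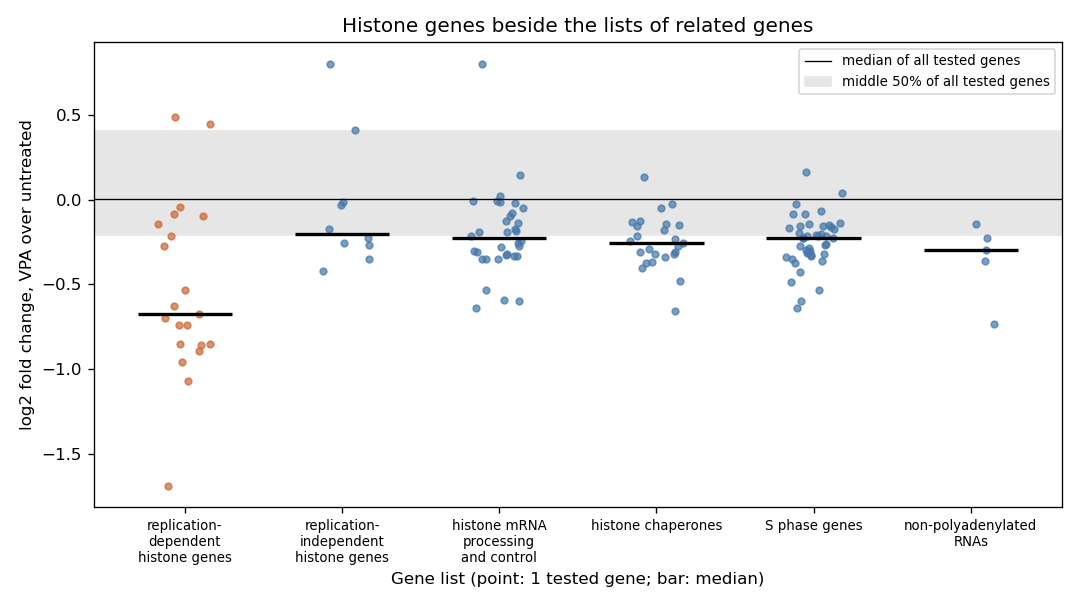
Log2 fold changes of VPA-treated over untreated cells (vertical axis) of every tested gene (points) in 6 lists, with list medians (bars), the median of all tested genes (line) and their middle 50% (grey, -0.21 to 0.40). The median of the replication-dependent histone genes, -0.67, lies below those of the other lists, which lie between -0.30 and -0.20.

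All 10 markers of HEK293T cells (among them PAX2, KRT8 and NEFL) were tested. In VPA-treated cells 6 were higher and 3 lower, beside 32.9% and 30% of all tested genes. Leukocyte markers had 218 counts and pluripotency markers 4 counts in all libraries together. The endothelial markers summed to 0.819 ± 0.284 CPM in untreated and 8.27 ± 0.89 CPM in VPA-treated cells. Of these 5 genes KDR and VWF were higher in VPA-treated cells, and the part of this rise in the histone result was not tested. No library stood apart in its total or in its histone count. Over all genes, untreated replicate 1 was further from the other 2 untreated libraries (chi-square per gene of 3.36 and 4.80) than these were from each other (1.94), and VPA-treated replicate 1 was likewise further from its group (2.63 and 3.18 against 1.62). Without untreated replicate 1 the number of histone genes lower by the adjusted p stayed at 11 and that past both thresholds was 5 in place of 2, and without VPA-treated replicate 1 these numbers were 11 and 3.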

How the data were processed

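RNA of untreated and VPA-treated HEK293T cells was measured in 3 libraries each. After read cleaning with SOAPnuke, the authors used STAR (2.7.10b per the submitters' processing notes) for alignment to hg38 and deposited raw counts per gene made with HTSeq, for which these notes give version 2.0.1 and the paper's methods another. Annotation and strand setting are not given in the sources used here. Reads with more than 1 place were set aside (2.81% to 2.92% of the reads listed), which lowers near-identical histone genes. The 5 summary lines were left out.

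The test was the quasi-likelihood test of edgeR 4.0.16 (R 4.3.3; TMM, filterByExpr with a minimum of 10, robust fit, prior count 0.125, Benjamini-Hochberg over 15298 genes). Normalized counts are scaled to the mean library. The code was tested on simulated data. Alternatives were DESeq2 1.42.0, other scalings and filters, an adjusted p threshold of 0.01, a replicate block and leaving out each library. The members and lists were chosen with earlier results of these data known. Full values were given for members past both thresholds, for the highest count and the highest and lowest log2 fold change of each class, and for the regulators. From each list came its extremes and at most 4 members past both thresholds, and 1 such gene is not reported here. Coordinates and promoters are from RefSeq (GRCh38.p14), and stem-loops from hg38 at GENCODE 44 coding ends.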

Additional observations from a re-analysis of the deposited data

How the results depend on the processing

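Of the histone genes, 11 were lower by the adjusted p alone. DESeq2 called 9 of them, upper quartile scaling 10, library totals 9 and ribosomal protein genes 8, and 5 were called where a mean of 50 counts was required, since few were then tested. Leaving out each library gave 9 to 11. The number past both thresholds was 2, but 1 with library totals, 1 with ribosomal protein genes, 0 with the mean of 50 counts and 2 to 5 when each library was left out (5 without untreated replicate 1, and 4 without VPA-treated replicate 2 or 3). By the adjusted p alone 1 gene, H2AC12, was higher with ribosomal protein genes. Upper quartile scaling, library totals and ribosomal protein genes raised the median of all tested genes to 0.071, 0.14 and 0.28. The log2 ratio of the whole histone sum, -0.66, was then -0.59, -0.52 and -0.39, and that of H2B was -0.63, -0.56 and -0.42. With library totals and ribosomal protein genes it was -0.37 and -0.23 for H1, -0.45 and -0.31 for H2A and -0.44 and -0.30 for H4, and with ribosomal protein genes -0.43 for H3.

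SLBP had a log2 fold change of -0.092 with library totals and 0.046 with ribosomal protein genes. NPAT lost its call with DESeq2 (-0.18), upper quartile scaling (-0.085), library totals (-0.019), the mean of 50 counts (-0.12) and a threshold of 0.01 (-0.15), was 0.12 with ribosomal protein genes, and ranged from -0.19 to -0.13 when each library was left out. CASP8AP2 passed the test with library totals (0.17) and ribosomal protein genes (0.31) and ranged from -0.014 to 0.077 when each library was left out. LSM11 was 0.029, 0.096 and 0.23 with upper quartile scaling, library totals and ribosomal protein genes, and ranged from -0.095 to 0.00096. H3-3B, which had passed, was 0.0040 with ribosomal protein genes, and the S phase, processing and chaperone lists turned in part with that scaling. H2AC13 was 0.045 on library totals, 0.18 on ribosomal protein genes, and -0.40 to 0.16 when each library was left out. H2AC17 was 0.024, 0.089 and 0.23 with the 3 scalings above, and -0.20 to 0.14. H2AC20 was 0.033 and 0.17 with the latter 2, and -0.20 to 0.049. With ribosomal protein genes H2BC5 was 0.12 and H4C3 0.051. The cause was not tested.

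Deviations from the group mean correlated weakly for libraries with the same number (0.14, 0.021 and 0.080). For libraries with different numbers the correlations were -0.11 to 0.031. These values do not settle whether the numbers mark pairs, and the main fit did not take them as pairs. Over all tested genes the replicate block called 5100 lower and 5357 higher, in place of 4591 and 5037. With the replicate block, 11 histone genes were lower by the adjusted p and 2 by both thresholds. Of 435 comparisons of single genes with their alternatives, 379 kept direction and side of the threshold. Depth limits the genes with few counts, whose standard errors reached 0.39 on the log2 scale.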

Other observations

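The 33 detected histone genes under the filter on low counts were fitted without that filter, and 0 had an adjusted p under 0.05 (edgeR), while 1, H4C2, had an unadjusted p under 0.05, and DESeq2 called 0 of those that it tested. H4C2 had 9 counts in all libraries together, a log2 fold change of -2.73 (SE 1.21) and an adjusted p of 0.0591. H2BC9, an H2B gene, had a log2 fold change of -1.05 (SE 0.56, adjusted p = 0.132).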
